A study of Mus musculus with 6 samples.

Results

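Elastic fibre and fibrillin genes were followed in cancer-associated fibroblasts (CAFs) sorted from mouse colonic adenomas. The 10 genes were chosen by name from 49548 genes in the table, with earlier results of these data known. They are the elastin gene Eln, the fibrillin genes Fbn1 and Fbn2, the microfibril-associated genes Mfap2, Mfap4 and Mfap5, the fibulin genes Fbln1, Fbln2 and Fbln5, and the elastin-interface gene Emilin1. Both groups came from Col6a1-cre mice crossed to the Rosa26-mTmG reporter on the C57/BL6 background, in which cells switch from Tomato to GFP once Cre has acted. Tumors were induced with the carcinogen azoxymethane at 8 to 10 weeks of age and 3 cycles of 2.5% dextran sodium sulfate (DSS), so both groups share genotype and treatment and neither is an untreated control. GFP+ cells (Col6a1+ CAFs) and Tomato+ cells (Col6a1- CAFs) were sorted after exclusion of cells carrying blood, epithelial, endothelial and red cell surface markers, with 3 libraries per group and tumors of 5 to 6 mice pooled per library. The Cre driver is known to mark PDGFRα-high fibroblasts and pericytes, so the GFP+ gate holds both. The authors also describe a small fraction of PDGFRα-low fibroblasts among the Col6a1+ cells of the colon. They place trophocytes (CD81+ fibroblasts) and most PDGFRα-low fibroblasts among the Col6a1- cells. The Tomato+ gate can also hold other cells that escaped the exclusion.

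Elastic fibres let tissues stretch and recoil, and consist of a core of cross-linked elastin laid on a scaffold of fibrillin microfibrils. Microfibril-associated glycoproteins bind the fibrillins, fibulins and emilins link elastin to the microfibril and to the cell, and lysyl oxidases form the cross-links. The same microfibrils hold latent TGF-β and BMP ligands in the matrix, which ties these genes to growth factor storage as well as to mechanics, and in the intestine they are made chiefly by mesenchymal cells.

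Levels are normalized read counts from 3′ end sequencing. Levels are compared between groups and not between genes, and a ratio or share of genes is read only for how it differs between groups. The libraries summed to between 3039152 and 3425249 normalized counts. Replicate 1 of the Col6a1+ CAFs stood apart, with 14530 genes detected against 18770 to 20511 in the others. Col6a1 itself read 861, 1287 and 1941 in the Col6a1+ libraries against 182, 321 and 102 in the Col6a1- libraries. Its log2 fold change of 2.82 was 0.99, and not called, once libraries were set to equal levels of pan-fibroblast markers. It is thus not a check of the sort apart from fibroblast content. The groups also differed in cell type markers. The summed level of 8 pan-fibroblast markers was 41971 to 46808 in Col6a1+ CAFs and 8708 to 15920 in Col6a1- CAFs, that of 10 pericyte and smooth muscle markers was 51878 to 104713 against 1550 to 4035, and that of 9 epithelial markers was 4974 to 5339 against 18230 to 27875. No marker of these 3 lists was at 0 in every library. In such bulk samples, fewer cells of a type and less RNA per cell cannot be told apart.

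Of the 10 genes, Eln, Fbn1 and Fbn2 were higher in Col6a1+ CAFs, by 6.93-fold, 4.23-fold and 8.05-fold between group means. None was called lower, and the 7 microfibril-associated, fibulin and emilin genes did not pass the test. Calls are from limma on log2(normalized count + 1) over 26402 genes, at a Benjamini-Hochberg adjusted p below 0.05. Across all those genes 2.66% were called higher in Col6a1+ CAFs and 1.96% lower, or 4.62% in either direction. The members were better measured than most: all 10 had a mean of at least 10 normalized counts, and among the 13515 genes at that level 10.5% were called in either direction. The median log2 fold change of the members was 1.07, and that of all genes tested was -0.27.

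**Figure D1:**
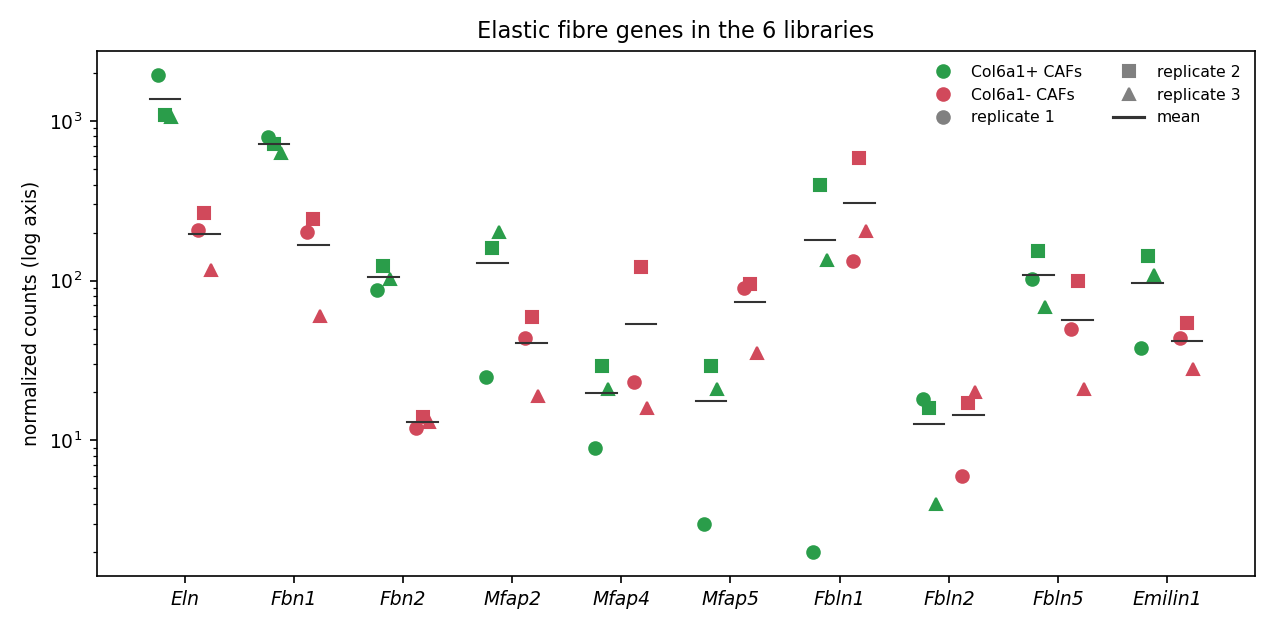
Normalized counts of the 10 elastic fibre genes (log axis) in the 3 Col6a1+ (green) and 3 Col6a1- (red) libraries, with 1 symbol per replicate number and a line at each group mean. For Eln, Fbn1 and Fbn2 every green point lies above every red point, for Mfap5 every green point lies below, and the other 6 genes overlap.

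Eln encodes tropoelastin, the soluble precursor of the elastic core. It lies on the minus strand at chr5:134702593-134747323 (mm10), with 37 exons in its principal transcript of the GENCODE annotation. Its normalized count was 1952, 1087 and 1052 in the Col6a1+ libraries and 209, 264 and 117 in the Col6a1- libraries. The lowest Col6a1+ library was thus well above the highest Col6a1- library, and replicate 1 of the Col6a1+ CAFs was the highest of all. The group means were 1364 ± 510 and 197 ± 74.3 (SD, n = 3 libraries each), a log2 fold change of 2.80 (SE 0.38, 95% interval 1.96 to 3.64, limma adjusted p = 0.0029).

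Fbn1 encodes fibrillin-1, the main microfibril protein of adult tissue, whose loss-of-function variants underlie Marfan syndrome. It lies on the minus strand at chr2:125300594-125507993 (mm10) and has 66 exons. Normalized counts of Fbn1 were 790, 717 and 631 in Col6a1+ CAFs and 202, 243 and 60 in Col6a1- CAFs. The Col6a1+ values lay close together, while replicate 3 of the Col6a1- CAFs was far below the other 2. The means were 713 ± 79.6 and 168 ± 96.0, with a log2 fold change of 2.30 (SE 0.48, 95% interval 1.24 to 3.35, limma adjusted p = 0.0226).

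Fbn2 encodes fibrillin-2, a microfibril protein best known from embryonic and regenerating tissue. It lies on chromosome 18. Its normalized counts were 87, 124 and 103 in Col6a1+ CAFs and 12, 14 and 13 in Col6a1- CAFs. The Col6a1- values were nearly equal, and the lowest Col6a1+ value was far above them. The means were 105 ± 18.6 and 13 ± 1, with a log2 fold change of 2.90 (SE 0.49, 95% interval 1.82 to 3.99, limma adjusted p = 0.00897).

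All 3 Col6a1+ libraries were above all 3 Col6a1- libraries for Eln, Fbn1 and Fbn2, which held for 7.91% of all genes tested and 14.2% of those with a mean of at least 10. These calls did not survive every fit. Deviations from the group means correlated at 0.125 to 0.245 between libraries of the same replicate number. They also correlated at 0.15 between Col6a1+ replicate 2 and Col6a1- replicate 3, so pairing by number is not established. Blocking on the replicate number gave adjusted p values of 0.0612 for Eln, 0.1 for Fbn1 and 0.0663 for Fbn2. That fit called 0 of the 26402 genes, with 1851 higher and 2567 lower at an unadjusted p below 0.05. When the block was kept and genes with a mean under 10 were left out, a fit added after seeing the data, all 3 were called again, at an adjusted p of 0.00204 for Eln, 0.00734 for Fbn1 and 0.00983 for Fbn2, as were 13.7% of the 13515 genes in that fit. Without any single Col6a1+ library, or without Col6a1- replicate 1, none of the 3 was called and neither was any other gene. Without Col6a1- replicate 2 or replicate 3, Fbn2 alone was called, at 0.0462 and 0.0491. The block cannot change a log2 fold change here, because every replicate number is in both groups. Since the groups did not overlap for these genes, leaving out a library could not change the direction either. With a library left out, the log2 fold changes were 2.47 to 3.05 for Eln, 1.68 (without Col6a1- replicate 3) to 2.68 for Fbn1 and 2.78 to 3.03 for Fbn2.

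The 3 genes were also set against the fibroblast content of the libraries, by shifting each library to an equal mean of the 8 pan-fibroblast markers (collagens Col1a1, Col1a2 and Col3a1, with Dcn, Lum, Pdgfra, Vim and Thy1). This scaling was chosen after seeing the data, and 5 of its 8 markers were themselves called higher in Col6a1+ CAFs. The remaining log2 fold change was 0.97 for Eln (SE 0.49, adjusted p = 0.0703), 0.46 for Fbn1 (SE 0.50, adjusted p = 0.388) and 1.07 for Fbn2 (SE 0.73, adjusted p = 0.175). None was called on this scale. What part the larger pan-fibroblast, pericyte and smooth muscle signal of the Col6a1+ libraries, or the larger epithelial signal of the Col6a1- libraries, has in the higher Eln, Fbn1 and Fbn2 was not tested.

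**Figure D2:**
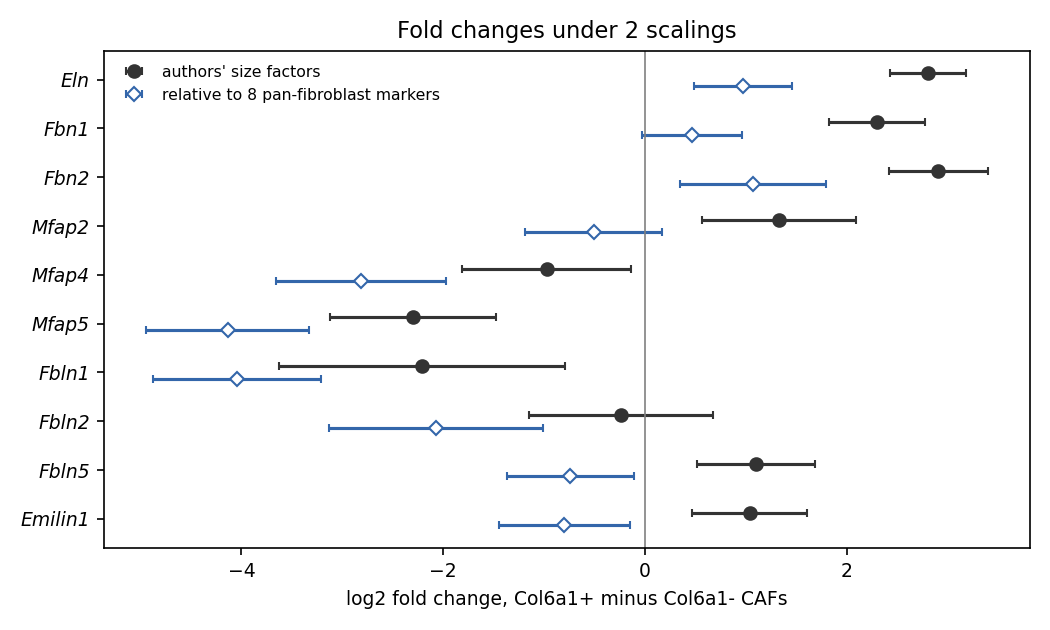
Log2 fold change of the 10 elastic fibre genes, Col6a1+ minus Col6a1- CAFs, with SE bars, for the authors' size factors (black circles) and relative to 8 pan-fibroblast markers (blue diamonds). Eln, Fbn1 and Fbn2 lie to the right of 0 on both scales, whereas Mfap2, Fbln5 and Emilin1 move from the right of 0 to the left of it.

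Of the called members only Fbn1 had a promoter sequence in the RefSeq tables used here (GRCm38.p6), which hold 6 of the 10 genes. It is shown as the start region of the gene whose transcript was higher in Col6a1+ CAFs. The window runs from 250 bases before to 50 after the RefSeq start on the minus strand, at chr2:125506389-125506688, and that start lies 1555 bases inside the gene boundary of the expression table. Capitals mark the GC box, GGGCGG on either strand, which occurred 1 time.

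Fbn1 promoter: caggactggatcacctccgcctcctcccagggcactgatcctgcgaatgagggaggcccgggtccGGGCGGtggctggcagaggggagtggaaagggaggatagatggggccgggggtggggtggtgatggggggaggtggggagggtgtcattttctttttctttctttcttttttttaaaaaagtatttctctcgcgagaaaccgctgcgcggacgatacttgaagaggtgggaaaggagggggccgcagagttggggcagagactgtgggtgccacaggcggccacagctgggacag

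The Fbn1 window was 60.3% G or C, against a median of 52.7% over all 32851 promoter windows. GC boxes were present in 35.7% of all windows and in 5 of the 9 windows of the 6 member genes, 1 each for Fbn1, Mfap2, Fbln1, Fbln2 and Fbln5. The TATA box TATAAA (13.6% of all windows), the AP-1 site TGANTCA (7.81%), the SMAD box GTCTAGAC (0.213%) and the CArG box (1.63%) had no match in the windows of the 6 genes on either strand. The TEAD site CATTCC (14.7%) matched only in that of Mfap2.

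Among the genes whose proteins sit on microfibrils, Mfap2 and Mfap5 encode the related glycoproteins MAGP-1 and MAGP-2, which bind fibrillin. Mfap5 read 3, 29 and 21 in the Col6a1+ libraries and 90, 95 and 35 in the Col6a1- libraries. The groups did not overlap, as for 11.6% of all genes tested that were lower in every Col6a1+ library and 17.6% of those with a mean of at least 10. Mean Mfap5 was 17.7 ± 13.3 against 73.3 ± 33.3, with a log2 fold change of -2.30 (SE 0.82, 95% interval -4.11 to -0.48) that did not pass the test (limma adjusted p = 0.17). Mfap5 did meet the looser criterion of an unadjusted limma p below 0.05 with a log2 fold change beyond 1, as did 8.61% of all genes in that direction. Eln, Fbn1 and Fbn2 were the 3 members to meet it in the other direction, against 6.09% of all genes. Without Col6a1+ replicate 1, which held 3 counts, the log2 fold change of Mfap5 was -1.40.

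Mfap2 was 25, 161 and 202 in Col6a1+ CAFs and 44, 59 and 19 in Col6a1- CAFs. Replicates 2 and 3 of the Col6a1+ CAFs were above every Col6a1- library, but replicate 1 fell among them. The log2 fold change of Mfap2 was 1.33 (SE 0.77, adjusted p = 0.442), and 2.26 without that replicate. The ratio of the paired genes was tighter than either gene alone. On the log2 scale, Mfap5 to Mfap2 was -2.70, -2.43 and -3.21 in the Col6a1+ libraries and 1.02, 0.68 and 0.85 in the Col6a1- libraries. The ranges of the ratio in the 2 groups did not overlap, and how often other pairs of genes separate in this way was not examined. The difference in mean log2 ratio was -3.63, -2.78 ± 0.39 against 0.85 ± 0.17 (SD, n = 3 each). Its p in the exact two-sided permutation test was 0.1, the smallest that 3 against 3 libraries can give, and 0.4 after adjustment over the 4 gene pairs tested. Scaling between libraries cannot move this ratio, and leaving out each library in turn kept it between -3.80 and -3.41.

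**Figure D3:**
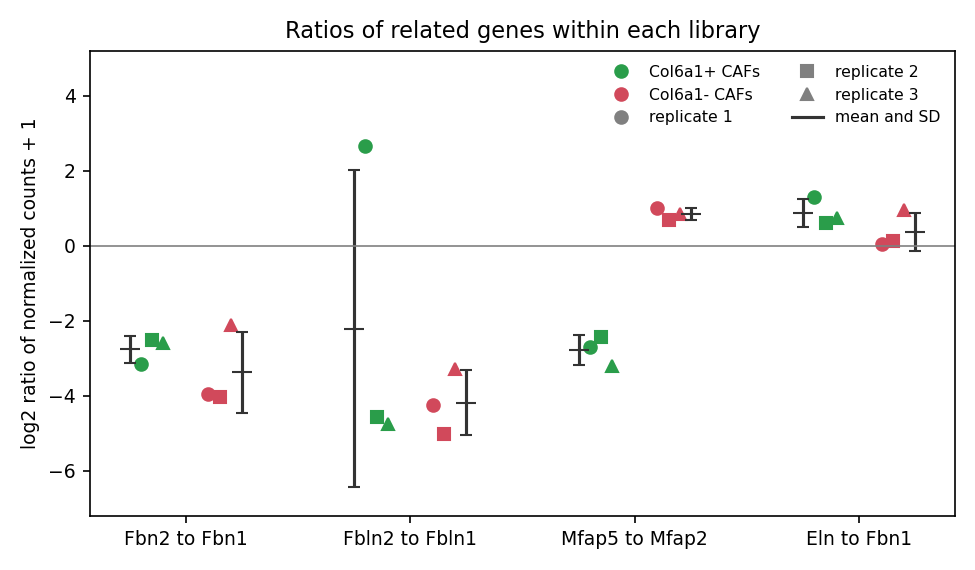
Log2 ratio of normalized counts + 1 within each library for 4 pairs of related genes, in Col6a1+ (green) and Col6a1- (red) CAFs, with the mean and SD of each group beside its points. The 3 green points of Mfap5 to Mfap2 lie between -3.21 and -2.43 and the 3 red points between 0.68 and 1.02, while the groups of the other pairs overlap.

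The other pairs were less separated. Fbn2 to Fbn1 had a mean log2 ratio of -2.76 ± 0.35 in Col6a1+ CAFs and -3.37 ± 1.08 in Col6a1- CAFs (exact permutation p = 0.4), and Eln to Fbn1 had 0.88 ± 0.37 and 0.37 ± 0.50 (exact permutation p = 0.3). Both pairs overlapped between the groups, and since no p below 0.1 is possible with 3 against 3 libraries, the tests say nothing on whether the proportions of Eln, Fbn1 and Fbn2 differ. Fbln2 to Fbln1 (exact permutation p = 0.8) was decided by a single library: the mean difference was 1.97 with all libraries and -0.47 without Col6a1+ replicate 1.

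Mfap4 encodes a fibrinogen-domain glycoprotein that binds elastin and fibrillin-1. Its normalized counts were 9, 29 and 21 in Col6a1+ CAFs and 23, 122 and 16 in Col6a1- CAFs. Apart from the single high Col6a1- library the groups overlapped, with a log2 fold change of -0.98 (SE 0.84, adjusted p = 0.605) that was -0.11 without Col6a1- replicate 2. The last 89 bases of the Mfap4 gene overlap Mapk7 on the other strand, and whether strand was used in counting is not given in the sources used here.

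The fibulins are calcium-binding glycoproteins that bridge elastin, fibrillin and basement membranes. Fbln5, needed for elastin to be deposited on microfibrils, read 102, 153 and 68 in the Col6a1+ libraries against 50, 99 and 21 in the Col6a1- libraries. The ranges overlapped, with a log2 fold change of 1.10 (SE 0.59, adjusted p = 0.411), while the Col6a1+ library was the higher one within each replicate number, by 1.01, 0.62 and 1.65 log2 units. Fbln1, which binds elastin and fibronectin, read 2, 400 and 134 against 132, 585 and 205. The log2 fold change of Fbln1 was -2.21 (SE 1.42, adjusted p = 0.51), and -0.12 without Col6a1+ replicate 1, which held 2 counts. Within replicate numbers 1, 2 and 3 the Col6a1+ library was lower by a log2 difference of -5.47, -0.55 and -0.61. Among genes with a mean of at least 10, 21.8% were higher in the Col6a1+ library of every number, as were Eln, Fbn1, Fbn2 and Fbln5, and 28.3% were lower in every number, as were Fbln1 and Mfap5. Fbln2, a partner of fibulin-5 in the vessel wall, was low throughout, at 18, 16 and 4 against 6, 17 and 20. Its log2 fold change of -0.24 (SE 0.91, adjusted p = 0.902) turned to 0.38 without Col6a1+ replicate 3 and to 0.06 without Col6a1- replicate 3.

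Emilin1 encodes emilin-1, a protein of the interface between elastin and microfibrils that also restrains TGF-β processing. It read 38, 143 and 109 in Col6a1+ CAFs and 44, 54 and 28 in Col6a1- CAFs. As with Mfap2, replicate 1 of the Col6a1+ CAFs fell among the Col6a1- values and the other 2 lay above them. Its log2 fold change was 1.04 (SE 0.57, adjusted p = 0.427).

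Relative to the pan-fibroblast markers, 3 members were called lower and none higher. Fbln1 (-4.05, SE 0.83, adjusted p = 0.000234), Mfap5 (-4.14, SE 0.81, adjusted p = 0.000126) and Mfap4 (-2.81, SE 0.84, adjusted p = 0.00453) were lower in Col6a1+ CAFs on this scale, which moves the median of all genes from -0.27 to -2.10: 18182 of the 26402 were called lower and 205 higher. Mfap2 (-0.51), Fbln5 (-0.74) and Emilin1 (-0.80) changed sign and were not called on either scale. Markers of trophocytes and adventitial fibroblasts, cells that are known to express Mfap5, summed to 1226 to 2857 in Col6a1+ CAFs and 2967 to 5124 in Col6a1- CAFs. Of these 8 markers Cd34 and Cd81 were called lower in Col6a1+ CAFs and none higher, and Pi16 was at 0 in Col6a1+ replicate 1. Their part in the values of Mfap5, Fbln1 and Mfap4 was not tested.

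The members also differed between libraries of the same group. Col6a1- replicate 2 had the highest value of its group for 9 of the 10 genes, against 33.2% of genes with a mean of at least 10, and Col6a1- replicate 3 had the lowest for 7 of 10, against 33.6%. The mean log2 level of the pan-fibroblast markers was 9.89, 9.98 and 9.08 in Col6a1- replicates 1, 2 and 3. Col6a1+ replicate 1 was the lowest of its group for 6 members, and the highest for Eln, Fbn1 and Fbln2, against 46.1% and 37.4% of genes with a mean of at least 10. The 10 members together took up 0.0912%, 0.0901% and 0.0685% of all normalized counts in the Col6a1+ libraries and 0.0267%, 0.0473% and 0.0165% in the Col6a1- libraries. These shares did not overlap (exact two-sided permutation p = 0.1, the smallest possible). The sum includes Eln, Fbn1 and Fbn2, the members called higher, so it is not a separate result on the set. No other member was called higher, and the sum without these genes was not tested. Fbn1 made up 26.1%, 25.1% and 26.9% of the members' counts in Col6a1+ CAFs and 24.9%, 15.7% and 11.2% in Col6a1- CAFs. Eln made up 64.5%, 38.0% and 44.9% of the members' counts in Col6a1+ CAFs and 25.7%, 17.0% and 21.9% in Col6a1- CAFs.

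Beyond the 10 members, 51 further genes of elastic fibre assembly, cross-linking, degradation and reception were examined. Of these 50 were tested, since Emilin3 was listed at 0 in every library, and 9 were called higher and 3 lower in Col6a1+ CAFs, where 2.66% and 1.96% of all genes were. Their median log2 fold change was 0.88, with 43 of them at a mean of at least 10 normalized counts, a level at which 10.5% of all genes were called. None of the 12 was called with the replicate block alone. With the block and a mean of at least 10, a fit that called 13.7% of its genes, 15 were called higher and 3 lower. They were the same 12 and, newly higher, Efemp1 (adjusted p = 0.0464), Adamts10 (0.0163), Mmp14 (0.0194), Ctsk (0.0245), Fkbp14 (0.0484) and Bgn (0.0148). Relative to the pan-fibroblast markers only Itgb3 of the 9 higher genes was still called (1.33, adjusted p = 0.0334), and the log2 fold changes of the others ranged from -0.24 for Serpinh1 to 1.45 for Loxl3.

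**Figure D4:**
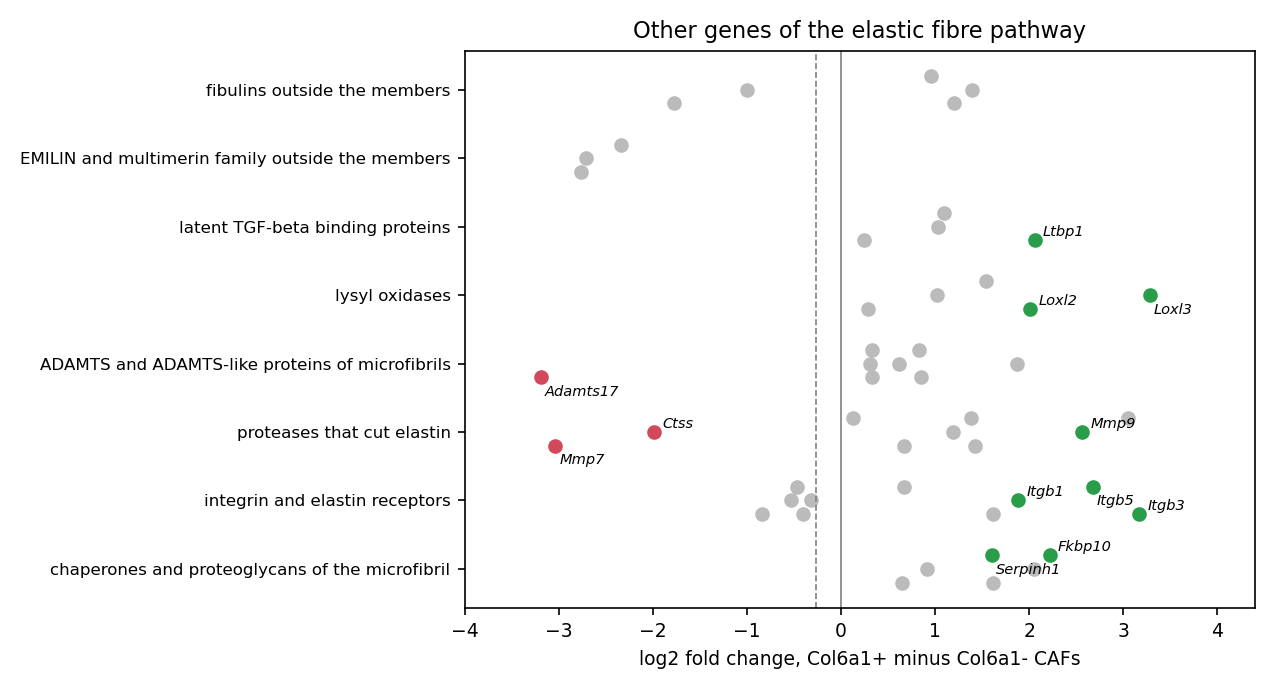
Log2 fold change, Col6a1+ minus Col6a1- CAFs, of the 50 tested pathway genes by role. Green points were called higher and red points lower, both named, grey points did not pass, and the dashed line marks the median of all genes at -0.27.

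Of the 5 lysyl oxidase genes, whose products oxidize lysines of elastin and collagen, 2 were called higher and 3 did not pass. Loxl2 was 1276 to 1548 against 235 to 455 (log2 fold change 2.01, SE 0.31, adjusted p = 0.00582), but 0.17 (adjusted p = 0.737) relative to the pan-fibroblast markers. Loxl3 was 121 to 248 against 9 to 25 (3.28, SE 0.54, adjusted p = 0.00765), or 1.45 (adjusted p = 0.056) relative to those markers, and overlaps Htra2 on the other strand by 1297 bases. The family founder Lox, at 1.02 (adjusted p = 0.385), Loxl1, the enzyme most closely tied to elastin, at 0.28 (adjusted p = 0.827), and Loxl4 at 1.54 (adjusted p = 0.398) did not pass.

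Of the 4 latent TGF-β binding protein genes, Ltbp1 was called. It read 506 to 660 against 116 to 181 (log2 fold change 2.06, SE 0.31, adjusted p = 0.00528). Relative to the pan-fibroblast markers its log2 fold change was 0.22. Ltbp2, Ltbp3 and Ltbp4 had log2 fold changes of 0.25, 1.03 and 1.10 and did not pass. Among 6 chaperones and proteoglycans of matrix assembly, Fkbp10, an endoplasmic reticulum prolyl isomerase for collagen and tropoelastin, was 354 to 482 against 62 to 158 (2.22, adjusted p = 0.0118; 0.38 relative to the pan-fibroblast markers), and overlaps Nt5c3b on the other strand. Serpinh1, which encodes the collagen chaperone HSP47, was 1880 to 3258 against 558 to 1152 (1.60, adjusted p = 0.0258), but turned to -0.24 on that scale. The proteoglycan gene Bgn (1.62, adjusted p = 0.0695) did not pass, though it did in 5 of the 17 other fits, including the filtered fit with the block.

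Receptors were represented by 10 genes, of which the integrin subunit genes Itgb1 (log2 fold change 1.88, adjusted p = 0.0208), Itgb3 (3.17, adjusted p = 0.0201) and Itgb5 (2.68, adjusted p = 0.00232) were called higher. Relative to the pan-fibroblast markers their log2 fold changes were 0.05, 1.33 and 0.84. Itgb3 read 1256, 300 and 2608 in Col6a1+ CAFs against 142, 111 and 84, and its log2 fold change was 4.03 without Col6a1+ replicate 2 and 2.47 without replicate 3. Their partner Itgav, which pairs with each of these β subunits to bind fibrillin-1 and other RGD proteins, was 118, 260 and 409 against 76, 169 and 239 and did not pass (0.67, adjusted p = 0.603), though the Col6a1+ library was the higher one within each replicate number. The 3 genes of the elastin receptor complex, Glb1, Neu1 and Ctsa, had log2 fold changes of -0.41, -0.85 and -0.47 and none passed.

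Elastin-cutting proteases moved both ways. Mmp9, the gelatinase B gene, was 3677, 844 and 1985 in Col6a1+ CAFs and 423, 147 and 473 in Col6a1- CAFs (log2 fold change 2.57, SE 0.56, adjusted p = 0.0286), or 0.73 relative to the pan-fibroblast markers. Mmp7, the matrilysin gene known from intestinal epithelium, was 57, 134 and 69 against 1034, 595 and 493 (-3.04, SE 0.42, adjusted p = 0.00302). Ctss, the cathepsin S gene known from antigen-presenting cells, was 42, 58 and 72 against 153, 306 and 244 (-1.99, SE 0.40, adjusted p = 0.0205). Of the 9 epithelial markers 7 were called lower in Col6a1+ CAFs. The 9 immune markers summed to 34 to 67 in Col6a1+ CAFs against 268 to 454 in Col6a1- CAFs. Ptprc was at 0 in Col6a1+ replicates 1 and 3, but only at 3 to 8 in the Col6a1- libraries. Adgre1, Csf1r and Cd79a, with 5 counts or fewer in every library, had log2 fold changes of 0.33, and the rest of the list had negative ones. S100a8 was the only immune marker called, and without it the other 8 summed to 17 to 38 against 57 to 119. Their part in Mmp7 and Ctss was not tested. Mmp12, the macrophage elastase gene, had a log2 fold change of 3.05 but did not pass (adjusted p = 0.22), with 74 of its counts in Col6a1+ replicate 1 and 12 or fewer in every other library.

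The remaining groups held 1 call. Adamts17, which encodes a microfibril-associated metalloprotease, was 4, 22 and 17 in Col6a1+ CAFs and 167, 55 and 167 in Col6a1- CAFs (log2 fold change -3.19, SE 0.72, adjusted p = 0.0317), the only one of 8 ADAMTS and ADAMTS-like genes to pass. It was not called with a pseudocount of 0.1 (adjusted p = 0.0535) or with limma-voom (adjusted p = 0.0514), and the log2 fold change was -2.52 without Col6a1+ replicate 1. Adamts10, at 329, 168 and 95 against 65, 63 and 25 (1.87, adjusted p = 0.0905), passed only with the block and a mean of at least 10. Of 5 further fibulin genes none passed, though Efemp1 (1.20, adjusted p = 0.266) did with the block and a mean of at least 10, and Fbln7 had the largest value of those averaging 10 or more normalized counts (log2 fold change 1.40, adjusted p = 0.366). Of the 3 tested emilin and multimerin genes none passed, at -2.77 for Mmrn1, -2.72 for Emilin2 and -2.34 for Mmrn2, where Emilin1 was at 1.04. All 3 were low, at 0 in Col6a1+ replicate 1 and at most 37 counts in any library. Leaving out 1 library moved Mmrn2 to as little as -1.10. The difference between Emilin1 and these genes was not tested.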

How the data were processed

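RNA of the 6 sorted libraries was sequenced from the 3′ end (QuantSeq). The authors aligned reads to mm10 with TopHat2 and Bowtie2, counted them per gene, normalized the counts with DESeq and deposited log2(normalized count + 1) values. All back-transformed values were whole within 0.01, so they are rounded normalized counts, and raw depth is unknown. Not used were 6 per-sample columns of another scale and the columns of the authors' own comparison (p-values, FDR, fold changes).

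Genes with at least 1 summed normalized count (26402) were fitted with limma 3.58.1 (lmFit, eBayes with trend; R 4.3.3) and adjusted by Benjamini-Hochberg. The log2 scale with a pseudocount of 1 understates changes of low genes. Ratios and shares were tested by exact permutation over libraries (SciPy 1.17.1). The labels do not say that the replicate number marks a shared day or pool. Same-numbered libraries correlated in their deviations from the group means (0.245, 0.125 and 0.144 over 13515 genes, each above 0.1). Differently numbered libraries gave -0.245 to 0.15. The value of 0.15, for Col6a1+ replicate 2 with Col6a1- replicate 3, exceeded 0.125 and 0.144. Pairing by number is thus not established. The main fit was unpaired, and the replicate number entered as a block only in alternative fits. No source names separate cultures or cohorts beyond pooled mice, so p-values measure the spread between libraries of pooled tumors. The paper sorted both gates from adenomas and gives a total of 3 samples, each a pool. GFP+ and Tomato+ libraries may therefore share pools, whereas the main fit treats all libraries as independent. The scripts were tested on simulated data. Gene models were compared with GENCODE, and the table's gene boundaries matched for 9 of 10 members (not Fbn2).

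The members and lists were chosen with earlier results of these data known. All members were named. Pathway genes were named if called or if they had the largest absolute log2 fold change of their list at a mean of at least 10. Lox, Loxl1, Loxl4, Ltbp2, Ltbp3, Ltbp4, Bgn, Itgav, Glb1, Neu1, Ctsa, Mmrn1, Mmrn2, Efemp1, Adamts10, Mmp14, Ctsk and Fkbp14 were added after their values were seen. Marker lists not described in the text were endothelial (75 to 198 summed counts in Col6a1+ and 155 to 344 in Col6a1- CAFs), erythroid (110 to 1713 and 281 to 482), glial (55 to 73 and 29 to 76) and mesothelial (1 to 19 and 14 to 38), with no called gene. Alternatives were other filters, a pseudocount of 0.1, other scalings, limma-voom, a replicate block, a looser criterion and leaving out each library. The block with a mean filter, array quality weights and the pan-fibroblast scaling were added after seeing the data.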

Additional observations from a re-analysis of the deposited data

How the results depend on the processing

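The count of elastic fibre genes called higher, 3, was kept with a mean or a per-library minimum of 10 normalized counts, a pseudocount of 0.1, equal library sums, equal medians, limma-voom, the replicate block with a mean of at least 10, and array quality weights. It was 1 without a filter, 0 with the replicate block, 0 to 1 when each library was left out in turn, and 0 relative to the pan-fibroblast markers, where 3 were called lower. The looser criterion called 1 lower. Pathway genes called higher (9) were 0 without a filter, 0 with the block, 0 to 1 with a library left out, 15 with the block and a mean of at least 10, 1 relative to the pan-fibroblast markers and 19 by the looser criterion. Those called lower (3) were 0, 0, 0, 3, 17 and 6 in the same order, and 2 with a pseudocount of 0.1 or limma-voom, without Adamts17. Over all genes, 703 higher and 517 lower became 21 and 7 without a filter, 0 and 0 with the block, 0 to 98 and 0 to 166 with a library left out, 205 and 18182 relative to the pan-fibroblast markers and 1607 and 2273 by the looser criterion. Lower calls were 336 with a pseudocount of 0.1, 798 with limma-voom, 871 with the block and a mean of at least 10, and 969 with array quality weights. Col6a1 (log2 fold change 2.82, limma adjusted p = 0.0061) was not called without a filter (2.82), with the block (2.82, adjusted p = 0.0983), with any library left out (2.41 to 3.23) or relative to the pan-fibroblast markers (0.99). The members' median of 1.07 turned to -0.77 on that scale, with Mfap2 at -0.51, Fbln5 at -0.74, Emilin1 at -0.80 and Serpinh1 at -0.24. The Fbln2 to Fbln1 difference ranged from -0.47 to 3.24 and that of Fbln2 from -0.73 to 0.38 (0.06 without Col6a1- replicate 3) over the left-out libraries. The block cannot move the ratio differences (Mfap5 to Mfap2, -3.63), because every replicate number is in both groups. The block and the left-out libraries lower the degrees of freedom by construction. The causes of these changes were not tested. The 3 libraries per group and the unknown raw depth limit the low genes most.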
